A study of Mus musculus with 16 samples.

Results

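Interferon-stimulated genes were followed in WT and IkL/L dendritic cell (DC) progenitors. The 39 genes were chosen by name, as known targets of interferon signaling, with earlier results of these data known. Their shares beside those of all genes are therefore a description and not an independent test. Of them 36 could be measured, among the 19938 genes that could be tested. Isg15 shares its probe set with Gm9706, Gbp2 shares its probe set with Gbp2b, and Ifi44 was not matched to a probe set, so none of these 3 was analysed here. Only Irf1 had more than 1 probe set.

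Type I interferons bind a receptor made of Ifnar1 and Ifnar2, whose kinases Jak1 and Tyk2 phosphorylate Stat2. With Irf9 it takes part in a complex that binds the interferon-stimulated response element (ISRE) and turns on genes that sense viral nucleic acid, block viral replication or damp the signal itself. Interferon-gamma acts at a different element, the gamma-activated site (GAS), and Irf1 is its classical target. Plasmacytoid DCs (pDCs) are known as producers of type I interferon, and Irf7 is the factor they use to make it.

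The cells were CD45.2+ bone marrow progenitors of 2 kinds, the earlier MDPs (monocyte-dendritic progenitors) and the later CDPs (common DC progenitors). They came from IkL/L mice, which carry a hypomorphic Ikzf1 (Ikaros) mutation in every cell, or from WT mice, all young adults. Each population was co-cultured for 24 h with unfractionated CD45.1+ WT bone marrow and Flt3L, with a γ-secretase inhibitor (GSI, Compound E) at 5 µM or with vehicle (DMSO), and the CD45.2+ cells were then recovered for RNA. The 8 groups were GSI- and DMSO-treated IkL/L CDPs, IkL/L MDPs, WT CDPs and WT MDPs, with 2 arrays each, 16 in all. MDP and CDP name the cells put into culture, and the RNA is that of their progeny after 24 h. Every group shared the WT support cells and the Flt3L medium. In these bulk samples, fewer cells of a type and less RNA per cell cannot be told apart.

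Values are log2 signals after RMA, between 2.55 and 13.46, with array medians of 4.52 to 4.65. Arrays of a group correlated over all genes with r between 0.983 and 0.996. Ikzf1 itself read 8.36 to 8.94 in the 8 IkL/L arrays and 8.90 to 9.20 in the 8 WT arrays, and was lower in IkL/L cells over the 4 populations (log2 difference -0.40 ± 0.07 SE, limma, adjusted p = 0.00666), which is no measure of the Ikaros protein. The labelled progenitor identity was checked on marker lists. The 8 measured pDC markers, of which Bst2 is also one of the 36 genes, averaged 6.23 to 7.37 in the 8 CDP arrays and 5.38 to 5.76 in the 8 MDP arrays, and the 5 DC progenitor markers averaged 7.12 to 8.37 in all 16 arrays. The latter mean does not check the stage, since it merges genes that moved in opposite directions. In DMSO-treated WT cells Flt3 read 8.16 and 8.56 in CDPs and 6.57 on both MDP arrays. Kit read 5.71 and 6.64 in these CDPs and 8.05 and 6.93 in these MDPs. B cell, T and NK cell and erythroid markers averaged 3.59 to 4.87 on every array. Array 1 of GSI-treated IkL/L CDPs stood apart from array 2 in the interferon-stimulated genes: all 36 were higher in array 1, with a mean over the genes of 7.62 against 6.79 in array 2. In DMSO-treated IkL/L CDPs the means were 7.70 in array 1 and 7.32 in array 2, with 29 of 36 higher in array 1. The 6 measured monocyte and macrophage markers moved the same way in these arrays, at 8.88 and 7.67 with GSI and at 9.06 and 8.09 with DMSO, and so did the 9 neutrophil markers, at 10.15 and 9.33 with GSI and at 10.46 and 9.81 with DMSO. In GSI-treated WT CDPs the monocyte and macrophage markers were at 8.55 and 7.25 and the neutrophil markers at 8.44 and 7.61, while the interferon-stimulated genes averaged 6.27 and 6.39. The DMSO-treated WT CDP arrays were uneven as well, with monocyte and macrophage markers at 8.88 and 8.33 and neutrophil markers at 8.01 and 9.04. Among the latter, Mpo read 7.85 and 11.67 and Elane 6.14 and 9.60. The interferon-stimulated genes averaged 6.90 on both of these arrays. The part of these markers in the spread of the interferon-stimulated genes was not tested.

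Promoter windows were matched in RefSeq (GRCm38.p6) for 27 of the 36 genes, as 34 windows of 250 bases before and 50 after a start. The ISRE core GAAANNGAAA, on either strand, was found in 14 of the 34 windows (41.2%), belonging to 13 genes, and in 3.44% of all 32851 windows of the same length. The GAS core TTCNNNGAA, which reads the same on both strands, was found in 6 of the 34 windows (17.6%) and in 8.3% of all windows. The core that Ikaros is known to bind, TGGGAA on either strand, was found in 11 of the 34 windows (32.4%) and in 25.6% of all windows. The stretches below lie before the start, on the strand of the gene, and are shown because genes with wide swings between groups (Ifit1, Ifit3, Rsad2, Oas3, Cxcl10) and a gene that hardly moved (Socs1) all hold the ISRE core, while Irf1, whose arrays did not overlap between genotypes in either stage, holds the GAS core. Oasl2, Irf7, Samd9l, Ifit2 and Xaf1 also swung widely between groups, and no ISRE core was found in their windows. Capitals mark the core. Ifit1 is shown at chr19:34640765-34640834, Ifit3 at chr19:34583353-34583422 and Irf1 at chr11:53769904-53769973, all on the plus strand. Rsad2 is shown at chr12:26456523-26456592, Oas3 at chr5:120777685-120777754, Cxcl10 at chr5:92349053-92349122 and Socs1 at chr16:10785570-10785639, all on the minus strand.
Ifit1: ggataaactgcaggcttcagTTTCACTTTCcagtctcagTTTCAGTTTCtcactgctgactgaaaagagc
Ifit3: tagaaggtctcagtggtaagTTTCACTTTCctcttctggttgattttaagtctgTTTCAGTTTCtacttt
Rsad2: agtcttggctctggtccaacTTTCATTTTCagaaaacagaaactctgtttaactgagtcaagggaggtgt
Oas3: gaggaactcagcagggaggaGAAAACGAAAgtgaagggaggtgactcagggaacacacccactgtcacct
Cxcl10: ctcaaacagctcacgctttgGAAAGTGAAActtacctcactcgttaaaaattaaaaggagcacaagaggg
Socs1: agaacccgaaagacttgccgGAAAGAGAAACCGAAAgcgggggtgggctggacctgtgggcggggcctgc
Irf1: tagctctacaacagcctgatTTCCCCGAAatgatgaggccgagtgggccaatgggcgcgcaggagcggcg
Ifit1 and Ifit3, neighbours on chromosome 19 that both encode proteins binding foreign RNA, carry 2 cores each in the stretch shown, and Socs1 carries 2 overlapping ones. A match describes the letters only.

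Across the 8 groups the genes had a common order. Their mean was highest in IkL/L CDPs, at 7.62 and 6.79 with GSI and 7.70 and 7.32 with DMSO. WT CDPs followed, at 6.27 and 6.39 with GSI and 6.90 on both arrays with DMSO. MDPs lay lowest, at 5.95 and 6.05 (GSI) and 5.98 and 6.20 (DMSO) in IkL/L cells and at 5.84 and 5.99 (GSI) and 6.19 and 6.15 (DMSO) in WT cells. The MDP arrays of both genotypes overlapped, and array 2 of GSI-treated IkL/L CDPs lay below the DMSO-treated WT CDPs. Of the 36 genes, 31 had their highest group mean in an IkL/L CDP group, against 21.9% of all genes, and 28 had both IkL/L CDP groups on top, against 9.27% of all genes. DMSO-treated IkL/L CDPs were highest for 25 genes and GSI-treated IkL/L CDPs for 6. The lowest group was an MDP group for 31 of 36 genes, against 44.2% of all genes, most often the GSI-treated WT MDPs, with 17.

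**Figure D1:**
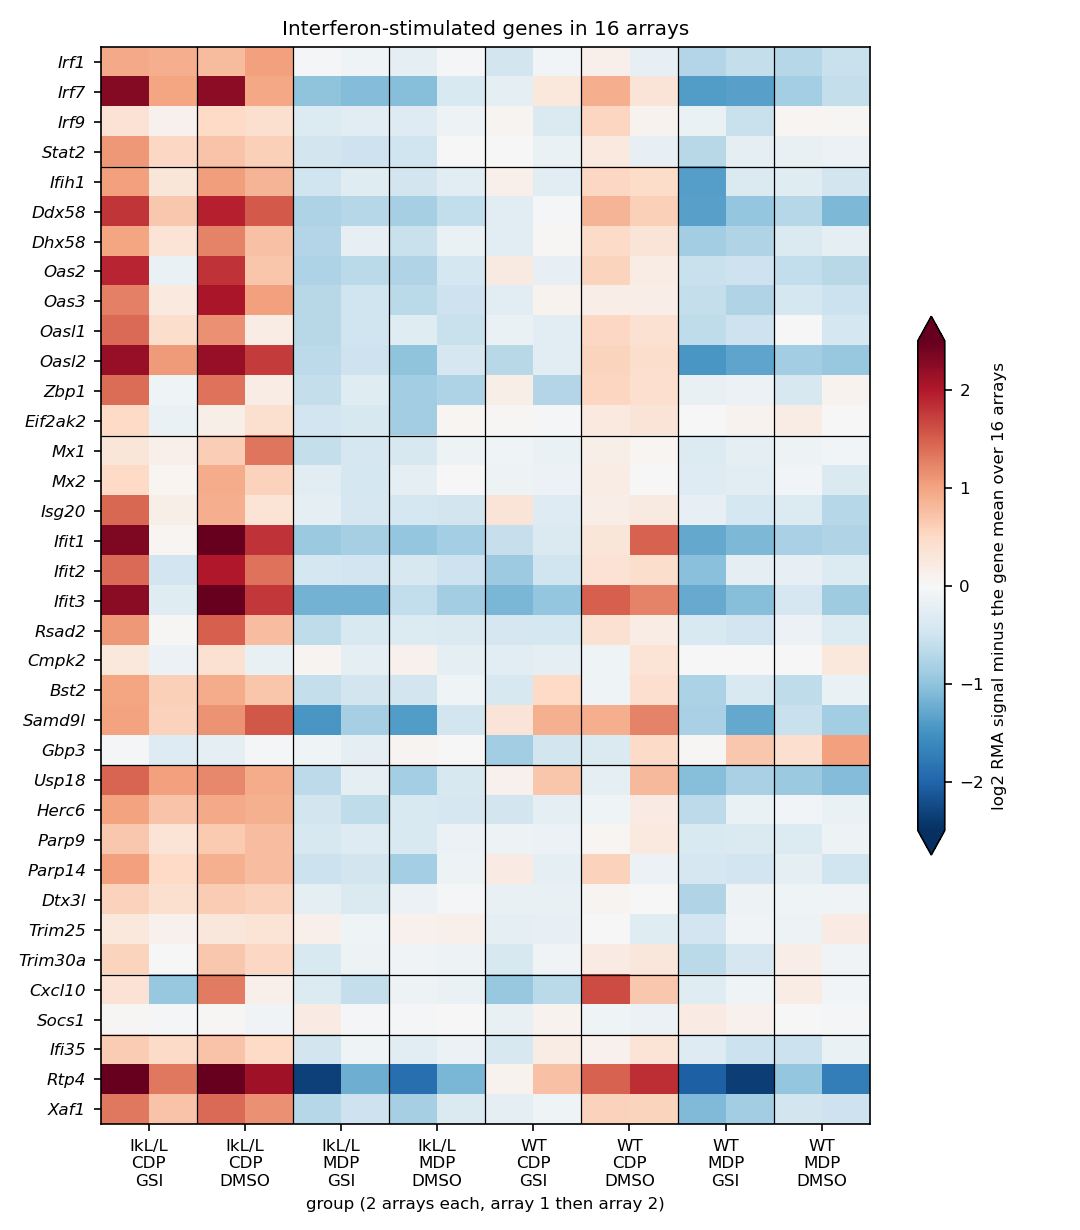
Heat map of the 36 measured interferon-stimulated genes (rows, ordered by role: transcription factors, nucleic acid sensors, antiviral effectors, ISG15 and ubiquitin or ADP-ribose transfer, feedback and chemokine, others) in 16 arrays (columns, 2 per group), coloured by log2 RMA signal minus the mean of the gene over all arrays. The 4 columns at the left, IkL/L CDPs, are the reddest in most rows, array 2 of GSI-treated IkL/L CDPs is paler than array 1, and Gbp3, Cmpk2 and Socs1 do not follow the common order.

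In IkL/L CDPs against WT CDPs, averaged over both treatments, 14 of the 36 interferon-stimulated genes were called higher (adjusted p under 0.05, limma with Benjamini-Hochberg adjustment over all genes) and none lower. Of all 19938 genes, 3.21% were called higher there. This average over treatments was added after the values were seen. The 14 were Irf1, Irf7, Stat2, Ddx58, Oas3, Oasl2, Mx1, Mx2, Rsad2, Herc6, Parp9, Dtx3l, Trim25 and Xaf1. All 36 genes had a positive difference, with a median of 0.69 on the log2 scale, while the median over all genes was -0.02. With DMSO alone 2 were called higher (background 0.933%) and the median was 0.63. With GSI alone 6 were called higher (background 1.35%) and the median was 0.78.

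Of the 4 transcription factors of the pathway, Irf1 had the smallest adjusted p and Irf7 the largest difference averaged over treatments. Irf1, which activates antiviral and antigen presentation genes, read 7.90 and 7.86 in GSI-treated and 7.75 and 7.97 in DMSO-treated IkL/L CDPs, against 6.49 and 6.88 in GSI-treated and 7.09 and 6.75 in DMSO-treated WT CDPs. All 4 IkL/L arrays lay above all 4 WT arrays. The difference was 0.95 ± 0.15 with DMSO (SE, n = 2 arrays each; limma, adjusted p = 0.013) and 1.20 ± 0.15 with GSI (adjusted p = 0.00229), and 2.1-fold averaged over treatments. These values are from the brightest of its probe sets. Under other processing settings, among them a mean of all probe sets of a gene, the difference ran from 0.76 to 0.95 with DMSO. With GSI it ran from 1.045 to 1.20. Irf7, the master factor of type I interferon production, read 8.95 and 7.64 with GSI and 8.89 and 7.62 with DMSO in IkL/L CDPs, against 6.42 and 6.93 with GSI and 7.56 and 6.98 with DMSO in WT CDPs. The lowest IkL/L array was only slightly above the highest WT array, and the averaged difference of 1.31 ± 0.33 was just past the threshold (limma, adjusted p = 0.0497). It lost the call without any of 14 of the 16 single arrays, with an adjusted p of up to 0.174 (without array 2 of DMSO-treated WT CDPs). Stat2, which carries the transactivation domain of the ISRE complex, read 7.84, 7.27, 7.48 and 7.36 in IkL/L CDPs (GSI, then DMSO), against 6.75, 6.59, 7.00 and 6.55 in WT CDPs, without overlap (0.77 ± 0.16, adjusted p = 0.0209). Irf9, the DNA-binding part of that complex, read 7.29, 7.03, 7.41 and 7.33 in IkL/L CDPs, against 6.99, 6.57, 7.46 and 7.00 in WT CDPs. Its arrays overlapped and the difference of 0.26 ± 0.13 was not called (limma, adjusted p = 0.407).

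Among the 9 nucleic acid sensors, Ddx58, Oas3 and Oasl2 were called higher in IkL/L CDPs averaged over treatments. Oasl2, an OAS-like protein, read 8.98 and 7.87 with GSI and 8.97 and 8.56 with DMSO in IkL/L CDPs, against 6.11 and 6.51 with GSI and 7.35 and 7.23 with DMSO in WT CDPs. It was the largest averaged difference of the 36 genes, at 1.79 ± 0.22 or 3.46-fold (limma, adjusted p = 0.00115), with no overlap of arrays. Ddx58, which encodes the viral RNA sensor RIG-I, read 8.56 and 7.45 with GSI and 8.72 and 8.32 with DMSO in IkL/L CDPs, against 6.51 and 6.74 with GSI and 7.62 and 7.38 with DMSO in WT CDPs. Within each treatment the IkL/L arrays lay above the WT arrays, though array 2 with GSI lay below array 1 of the DMSO-treated WT CDPs, and the averaged difference was 1.20 ± 0.22 (limma, adjusted p = 0.00928). Oas3, a synthase of the oligoadenylate that activates RNase L, read 6.77, 5.76, 7.55 and 6.55 in IkL/L CDPs (GSI, then DMSO), against 5.25, 5.61, 5.68 and 5.69 in WT CDPs (1.10 ± 0.24, adjusted p = 0.0233). Array 2 of GSI-treated IkL/L CDPs lay only just above the DMSO-treated WT arrays. The remaining RIG-I-like receptors had positive differences that were not called. Ifih1, encoding MDA5, read 8.42, 7.71, 8.45 and 8.27 in IkL/L CDPs (GSI, then DMSO), against 7.53, 7.13, 7.92 and 7.87 in WT CDPs (0.60 ± 0.21, limma, adjusted p = 0.177). Dhx58, encoding LGP2, read 6.76, 6.11, 7.01 and 6.49 in IkL/L CDPs, against 5.49, 5.80, 6.24 and 6.09 in WT CDPs (0.69 ± 0.18, adjusted p = 0.0579). In both genes array 2 of GSI-treated IkL/L CDPs lay below a DMSO-treated WT array. Oas2 (0.86), Oasl1 (0.68) and Zbp1 (0.62) were not called either, and Eif2ak2, the kinase PKR that stops translation, was 0.08.

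Of the 11 measured antiviral effectors, Mx1, Mx2 and Rsad2 were called higher in IkL/L CDPs averaged over treatments. Each of these calls was lost under 2 other processing settings. Mx1, a GTPase that blocks influenza viruses, read 4.86, 4.67, 5.17 and 5.90 in IkL/L CDPs (GSI, then DMSO), against 4.45, 4.38, 4.70 and 4.61 in WT CDPs (0.62 ± 0.14, limma, adjusted p = 0.0269). Array 2 of the GSI-treated IkL/L CDPs lay between the DMSO-treated WT arrays. Rsad2, encoding viperin, differed by 0.92 ± 0.21 (adjusted p = 0.0331) and Mx2 by 0.54 ± 0.12 (adjusted p = 0.0327). In these genes, too, array 2 of GSI-treated IkL/L CDPs lay below a DMSO-treated WT array. Signals of Mx1 and Mx2 were weak, with group means of 4.05 to 5.53 for Mx1 and 3.42 to 4.53 for Mx2. The array medians were 4.52 to 4.65. The Ifit genes had larger differences with a wider spread. Ifit1 read 7.25 and 4.97 with GSI and 7.42 and 6.74 with DMSO in IkL/L CDPs, against 4.34 and 4.57 with GSI and 5.23 and 6.41 with DMSO in WT CDPs. The GSI-treated IkL/L arrays lay far apart, and the averaged difference of 1.46 ± 0.42 was not called (limma, adjusted p = 0.0845). Ifit2 read 6.86, 4.98, 7.44 and 6.81 in IkL/L CDPs, against 4.54, 4.94, 5.81 and 5.88 in WT CDPs (1.23 ± 0.34, adjusted p = 0.0745), and Ifit3 differed by 1.55 ± 0.46 (adjusted p = 0.097). Bst2, encoding the virus-tethering protein CD317 that is also used to gate pDCs, was not called (0.70 ± 0.22, adjusted p = 0.109). Isg20 (0.60), Samd9l (0.22), Gbp3 (0.14) and Cmpk2 (0.14) were not called. The Ifit, Oas, Mx and Gbp families hold related sequences, and whether their probes take up signal from a relative was not tested.

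Of the 7 measured genes of ISG15 conjugation, ubiquitin and ADP-ribose transfer, 4 were called higher in IkL/L CDPs averaged over treatments. Herc6, the ligase that attaches ISG15 to proteins in mice, read 7.46 and 7.16 with GSI and 7.4 and 7.35 with DMSO in IkL/L CDPs, against 5.98 and 6.21 with GSI and 6.34 and 6.66 with DMSO in WT CDPs. The arrays did not overlap, and the gene was called with DMSO (0.87 ± 0.17, limma, adjusted p = 0.04), with GSI (1.21 ± 0.17, adjusted p = 0.00501) and averaged (2.06-fold, adjusted p = 0.000759). Parp9 and Dtx3l, partners in one ADP-ribosyltransferase and ubiquitin ligase complex, were both called. Parp9 read 7.90, 7.56, 7.86 and 7.98 in IkL/L CDPs (GSI, then DMSO), against 7.10, 7.06, 7.26 and 7.46 in WT CDPs (0.61 ± 0.09, adjusted p = 0.00341), and Dtx3l differed by 0.62 ± 0.11 (adjusted p = 0.00877). Trim25, a ubiquitin ligase that activates RIG-I, differed by 0.44 ± 0.11 (adjusted p = 0.0464). Its call was just past the threshold and was lost under 2 other processing settings. Leaving out 1 array at a time, the Trim25 difference ran from 0.37 to 0.51. Usp18, the protease that removes ISG15 and blocks the type I interferon receptor, read 8.44, 8.0, 8.18 and 7.89 in IkL/L CDPs, against 7.09, 7.67, 6.75 and 7.78 in WT CDPs. Its arrays did not overlap, and the difference of 0.81 ± 0.23 was not called (limma, adjusted p = 0.0814). Parp14 read 8.48, 7.96, 8.36 and 8.24 in IkL/L CDPs, against 7.68, 7.23, 8.04 and 7.32 in WT CDPs (0.69 ± 0.20, adjusted p = 0.0888), and Trim30a differed by 0.44 ± 0.13 (adjusted p = 0.0864).

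The remaining genes split. Xaf1, a pro-apoptotic interferon target, read 8.44 and 7.85 with GSI and 8.54 and 8.28 with DMSO in IkL/L CDPs, against 6.90 and 7.02 with GSI and 7.70 and 7.69 with DMSO in WT CDPs (0.95 ± 0.14, limma, adjusted p = 0.00287), without overlap. Rtp4, a chaperone of membrane receptors, read 9.74, 8.05, 9.81 and 8.85 in IkL/L CDPs (GSI, then DMSO), against 6.81, 7.47, 8.22 and 8.58 in WT CDPs. Array 2 with GSI lay under the DMSO-treated WT arrays, and the difference of 1.35 ± 0.41 was not called (adjusted p = 0.104). Ifi35 read 8.02, 7.86, 8.09 and 7.88 in IkL/L CDPs, against 6.99, 7.56, 7.49 and 7.72 in WT CDPs (0.53 ± 0.14, adjusted p = 0.0663). The chemokine gene Cxcl10, which attracts T cells through Cxcr3, was one of the genes outside the common order. It read 6.0 and 4.68 with GSI and 6.93 and 5.76 with DMSO in IkL/L CDPs, against 4.69 and 4.97 with GSI and 7.26 and 6.31 with DMSO in WT CDPs. Its highest array was a WT one, and the averaged difference was 0.04 ± 0.32 (limma, adjusted p = 0.985). Socs1, the inhibitor of Jak kinases, lay between 5.24 and 5.63 on all 16 arrays.

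**Figure D2:**
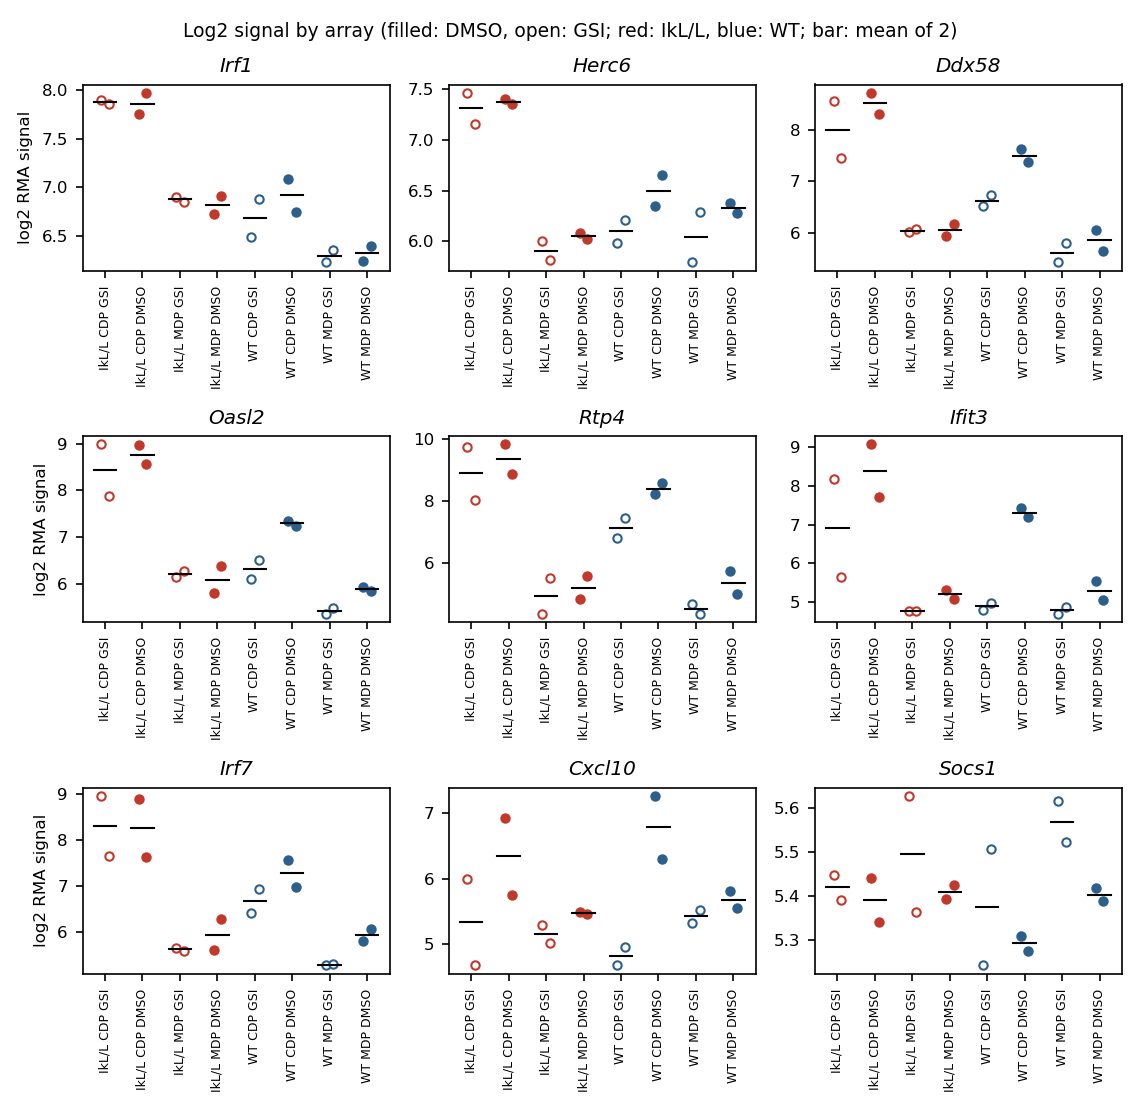
Log2 RMA signal of 9 interferon-stimulated genes on each array (points, array 1 left of array 2) and group mean of 2 arrays (bar), by group, with filled points for DMSO, open points for GSI, red for IkL/L and blue for WT, and a vertical scale of its own for each gene. Irf1 and Herc6 are high in all 4 IkL/L CDP arrays, Ifit3 and Cxcl10 are low in both GSI-treated WT CDP arrays, and the 16 points of Socs1 lie between 5.24 and 5.63.

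These counts rest on few arrays. The averaged count also takes the GSI and DMSO arrays of a population as independent, which the labels do not settle. With DMSO, the count of 2 became 0 without array 2 of DMSO-treated WT CDPs and 6 without either array of GSI-treated IkL/L CDPs. It was 1, Irf1, without array 1 of DMSO-treated WT CDPs, either array of DMSO-treated WT MDPs or any 1 of the 4 IkL/L MDP arrays, and 1, Oas3, without array 2 of DMSO-treated IkL/L CDPs. With GSI, the count of 6 became 2 and 3 without array 1 or array 2 of GSI-treated WT CDPs, and 3 and 10 without array 1 or array 2 of GSI-treated IkL/L CDPs, with Irf1 and Herc6 called in the 3 fits with the fewest calls. The averaged count of 14 became 8 without array 1 of GSI-treated WT CDPs, array 2 of DMSO-treated WT CDPs or array 1 of DMSO-treated IkL/L CDPs, 7 without array 1 of GSI-treated IkL/L CDPs and 21 without array 2 of that group. The median difference with GSI was 0.46 without array 1 and 1.14 without array 2 of GSI-treated IkL/L CDPs. A fit on only the 4 arrays compared called 0 with DMSO and 0 with GSI. For a single gene and 2 arrays a side, the smallest p an exact permutation test allows is 0.333.

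Other cell type markers moved with genotype in CDPs beside the interferon-stimulated genes. Of 8 mature DC markers, 7 were called higher in IkL/L CDPs averaged over treatments, with list means of 7.90 to 8.38 in the 4 IkL/L CDP arrays and 5.28 to 5.77 in the 4 WT CDP arrays. Of 9 neutrophil markers, 7 were called higher, with list means of 9.33 to 10.46 in IkL/L CDPs and 7.61 to 9.04 in WT CDPs. Elane and Mpo leaned the other way. Elane read 5.48 to 5.65 in IkL/L CDPs and 5.20 to 9.60 in WT CDPs, and Mpo read 6.56 to 7.78 and 7.28 to 11.67. Of 8 pDC markers 1 was called higher, with list means of 6.65 to 6.79 in IkL/L CDPs and 6.23 to 7.37 in WT CDPs. Of 9 cDC markers 1 was called higher, and of 6 monocyte and macrophage markers none, with list means of 7.67 to 9.06 in IkL/L CDPs and 7.25 to 8.88 in WT CDPs. Their part in the differences of the interferon-stimulated genes was not tested.

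**Figure D3:**
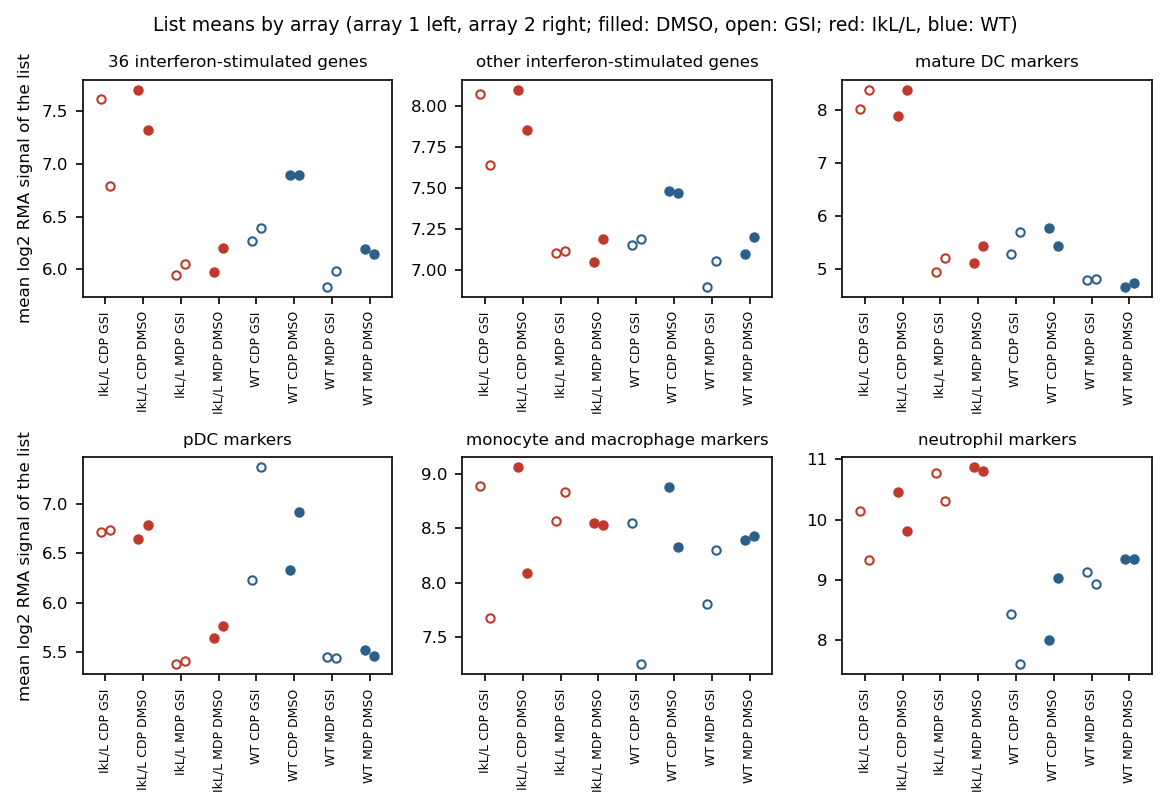
Mean log2 RMA signal of 6 gene lists on each of 16 arrays (array 1 left, array 2 right), by group, with filled points for DMSO, open points for GSI, red for IkL/L and blue for WT. The interferon-stimulated genes and mature DC markers are highest in IkL/L CDPs, the monocyte and macrophage markers spread widely between the 2 arrays of each CDP group, and the neutrophil markers are higher in IkL/L arrays of both stages.

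In MDPs the interferon-stimulated genes differed little between genotypes, though other genes differed more. With DMSO, H2-Ab1 was higher in IkL/L MDPs by 3.77 ± 0.37 (limma, adjusted p = 0.0102) and Camp by 3.49 ± 0.41 (adjusted p = 0.0138). The cDC list means were 6.67 to 7.38 in IkL/L MDPs and 4.96 to 5.37 in WT MDPs. None of the 36 genes was called in IkL/L against WT MDPs, with DMSO (background 0.105% called higher), with GSI (0.11%) or averaged over treatments (0.537%), and the medians were -0.10, 0.03 and -0.01. At an unadjusted p under 0.05, 1 was higher with DMSO (2.56% of all genes) and 2 with GSI (3.66%). Irf1 was the gene nearest to a call. It read 6.91 and 6.85 with GSI and 6.73 and 6.91 with DMSO in IkL/L MDPs, against 6.23 and 6.35 with GSI and 6.24 and 6.40 with DMSO in WT MDPs, so that its arrays did not overlap in this stage either (0.54 ± 0.10 averaged, limma, adjusted p = 0.0568). It was called without any 1 of the 4 WT CDP arrays, when the count for this comparison was 1. Gbp3, a GTPase that attacks pathogen vacuoles, ran the other way at -0.62 ± 0.21 (adjusted p = 0.371), and Herc6 was at -0.20 ± 0.12 (adjusted p = 0.695). Averaged over all 4 populations, 9 genes were called higher in IkL/L cells (background 3.85%): Irf1, Oasl2, Xaf1, Ddx58, Herc6, Parp9, Dtx3l, Trim25 and Usp18. That count was 5 without array 1 of DMSO-treated WT MDPs, array 2 of DMSO-treated IkL/L MDPs or array 2 of GSI-treated IkL/L MDPs, and 16 without array 2 of GSI-treated IkL/L CDPs.

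Whether the genotype effect was larger in CDPs than in MDPs was tested directly. Averaged over treatments it was positive for all 36 genes, with a median of 0.69, and 1 gene, Herc6, was called (background 0.401%). This averaged test was added after the values were seen. Herc6 read 7.16 to 7.46 in the 4 IkL/L CDP arrays and 5.98 to 6.66 in the 4 WT CDP arrays, and 5.82 to 6.08 in IkL/L MDPs and 5.79 to 6.38 in WT MDPs. Its genotype effect was thus larger in CDPs by 1.25 ± 0.17 (limma, adjusted p = 0.00936), and it kept the call in each fit without 1 array. Parp9 (0.62 ± 0.13, adjusted p = 0.0922), Mx1 (0.81 ± 0.19, adjusted p = 0.15), Xaf1 (0.82 ± 0.20, adjusted p = 0.151) and Oasl2 (1.30 ± 0.31, adjusted p = 0.161) came next. The count was 2 without array 1 of GSI-treated WT MDPs (with Dtx3l) or array 1 of DMSO-treated IkL/L CDPs (with Mx1), and 7 without array 2 of GSI-treated IkL/L CDPs. With DMSO alone none was called (background 0.105%) and 10 passed an unadjusted p under 0.05, against 1.88% of all genes. Without array 1 of DMSO-treated IkL/L CDPs 1 was called, Mx1.

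CDPs against MDPs gave the widest separation. Averaged over genotypes and treatments, 29 of the 36 genes were called higher in CDPs (background 4.72%) and none lower, with a median difference of 0.80. The 7 without a call were Zbp1, Eif2ak2, Cxcl10, Cmpk2, Socs1, Gbp3 and Trim25. The average over conditions was added after the values were seen, as were the stage comparisons with GSI in each genotype. In IkL/L cells 17 were called higher with DMSO (background 1.28%) and 14 with GSI (background 1.65%), 11 of them in both, with medians of 1.28 and 1.11. In WT cells none was called higher with DMSO (background 0.0953%) or with GSI (background 0.166%), and none lower. At an unadjusted p under 0.05, 15 were higher in WT CDPs with DMSO (3.06% of all genes) and 10 with GSI (3.75%), and the medians were 0.62 and 0.32. The 3 largest differences in DMSO-treated IkL/L cells were those of Rtp4, Ifit3 and Ifit1.

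Rtp4 read 9.81 and 8.85 in DMSO-treated IkL/L CDPs, against 4.85 and 5.58 in DMSO-treated IkL/L MDPs (4.12 ± 0.58 or 17.4-fold, limma, adjusted p = 0.00567), and 8.22 and 8.58 in DMSO-treated WT CDPs, against 5.76 and 5.01 in DMSO-treated WT MDPs (3.01 ± 0.58, adjusted p = 0.139). It was far higher in CDPs of both genotypes, without overlap. Ifit3 read 9.08 and 7.72 in DMSO-treated IkL/L CDPs, against 5.32 and 5.07 in the matched MDPs (3.20 ± 0.65, adjusted p = 0.0382), and 7.44 and 7.19 in DMSO-treated WT CDPs, against 5.53 and 5.06 in WT MDPs. Samd9l, an interferon-induced restriction factor, read 9.53 and 9.96 in DMSO-treated IkL/L CDPs, against 7.02 and 7.94 in IkL/L MDPs (2.27 ± 0.34, adjusted p = 0.00846), and 9.32 and 9.64 in DMSO-treated WT CDPs, against 7.85 and 7.54 in WT MDPs (1.78 ± 0.34, adjusted p = 0.139). Unlike Irf1 or Herc6, Samd9l separated the stages while its genotype difference in CDPs was 0.22 ± 0.24 (adjusted p = 0.789). Irf7 read 8.89 and 7.62 in DMSO-treated IkL/L CDPs, against 5.60 and 6.29 in IkL/L MDPs (2.32 ± 0.47, adjusted p = 0.0363). Ddx58 read 5.95 and 6.17 and Oasl2 read 5.80 and 6.37 in DMSO-treated IkL/L MDPs, below every CDP array of that genotype (2.46 ± 0.31, adjusted p = 0.00283, for Ddx58 and 2.68 ± 0.31, adjusted p = 0.00214, for Oasl2). Usp18 was higher by 1.5 ± 0.16 in CDPs over the 4 conditions (adjusted p = 0.000357), Ifih1 by 1.01 ± 0.15 (adjusted p = 0.00241) and Dhx58 by 0.97 ± 0.13 (adjusted p = 0.00116). Gbp3 leaned towards MDPs, with 6.15 and 7.01 in DMSO-treated WT CDPs against 6.95 and 7.55 in DMSO-treated WT MDPs, and the averaged difference of CDPs to MDPs was -0.47 ± 0.15 (limma, adjusted p = 0.0942).

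The stage counts in IkL/L cells depended on single arrays. The 17 with DMSO became 4 and 10 without array 1 or array 2 of DMSO-treated IkL/L MDPs, and 9 and 8 without array 1 or array 2 of DMSO-treated IkL/L CDPs. The 14 with GSI became 2 and 6 without array 1 or array 2 of GSI-treated IkL/L MDPs, and 7 without array 1 of GSI-treated IkL/L CDPs. In WT cells 1 gene, Ddx58, was called with DMSO without either array of GSI-treated IkL/L CDPs, and 1, Dtx3l, with GSI without array 2 of GSI-treated WT MDPs. The median with GSI in IkL/L cells was 0.73 without array 1 and 1.53 without array 2 of GSI-treated IkL/L CDPs. The pDC and cDC markers moved with stage as well: 7 of 8 pDC markers and 7 of 9 cDC markers were called higher in CDPs over the 4 conditions. The cDC list means were 7.48 to 8.61 in the CDP arrays, 6.67 to 7.38 in IkL/L MDPs and 4.96 to 5.37 in WT MDPs. The part of these markers in the stage differences of the interferon-stimulated genes was not tested.

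**Figure D4:**
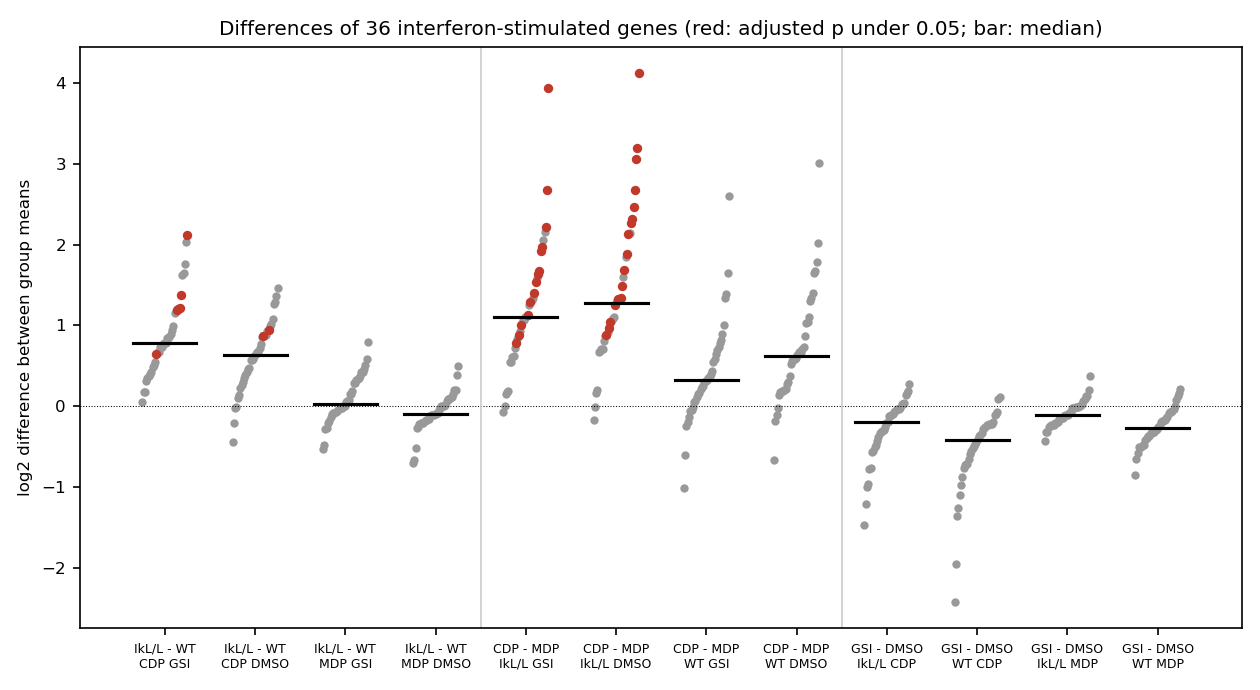
Log2 differences of group means for the 36 interferon-stimulated genes (points, sorted within each comparison) in 12 comparisons, with genes called at an adjusted p under 0.05 in red and the median as a bar. Medians are 0.78 and 0.63 for genotype in CDPs but 0.03 and -0.10 in MDPs, and below 0 in each of the 4 GSI comparisons, where no point is red.

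GSI called none of the 36 genes in any population. The share of all genes called was 0.00502% in IkL/L CDPs, 0.01% in WT CDPs, 0% in IkL/L MDPs, 0% in WT MDPs and 0.306% averaged over the 4 populations. The differences of the interferon-stimulated genes were mostly negative all the same: 29 of 36 in IkL/L CDPs (46.5% of all genes), 34 in WT CDPs (47.5%), 27 in IkL/L MDPs (46.9%), 32 in WT MDPs (42.7%) and 33 averaged (42.7%). The medians were -0.20, -0.43, -0.11 and -0.27 in these populations and -0.27 averaged, while the median of all genes was 0.01 averaged. At an unadjusted p under 0.05, 5 were lower in IkL/L CDPs (1.55% of all genes), 12 in WT CDPs (2.28%), none in IkL/L MDPs (1.21%), 2 in WT MDPs (2.88%) and 20 averaged (5.42%).

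The most negative differences stood in WT CDPs. Ifit3 read 4.80 and 4.98 in GSI-treated WT CDPs, against 7.44 and 7.19 in DMSO-treated WT CDPs. This difference of -2.43 ± 0.65 (limma, unadjusted p = 0.00381, adjusted p = 0.999) put the GSI-treated WT CDPs at the level of MDPs, whose 8 arrays read 4.69 to 5.53. Cxcl10 read 4.69 and 4.97 in GSI-treated WT CDPs, against 7.26 and 6.31 in DMSO-treated WT CDPs (-1.96 ± 0.46, adjusted p = 0.855). Ifit1 read 4.34 and 4.57 with GSI, against 5.23 and 6.41 with DMSO (-1.36 ± 0.59), and Rtp4 read 6.81 and 7.47 with GSI, against 8.22 and 8.58 with DMSO (-1.26 ± 0.58). Oasl2, Ddx58 and Xaf1 also had both GSI arrays below both DMSO arrays in WT CDPs, at -0.98, -0.87 and -0.73. Usp18 did not: it read 7.09 and 7.67 with GSI, against 6.75 and 7.78 with DMSO (0.12 ± 0.33).

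In IkL/L CDPs the same genes had a wider spread between arrays. Ifit3 read 8.2 and 5.64 with GSI, against 9.08 and 7.72 with DMSO (-1.48 ± 0.65), and Cxcl10 read 6.0 and 4.68 with GSI, against 6.93 and 5.76 with DMSO (-1.0 ± 0.46). For both genes array 1 was the higher one within each treatment, and array 1 with GSI lay above array 2 with DMSO, while each GSI array lay below the DMSO array of the same number. Mx1 had both GSI arrays lower (4.86 and 4.67, against 5.17 and 5.90 with DMSO; -0.76 ± 0.19, adjusted p = 0.554). Irf1 was at 0.02 ± 0.15 and Irf7 at 0.04 ± 0.47. The direction in IkL/L CDPs turned on single arrays: the median of -0.20 was -0.57 without array 1 and 0.05 without array 2 of GSI-treated IkL/L CDPs. The GSI effect in IkL/L CDPs minus that in WT CDPs was called for none of the 36 genes (background 0% either way), none was higher at an unadjusted p under 0.05 (0.818% of all genes), and its median of 0.24 was -0.10 without array 1 and 0.53 without array 2 of GSI-treated IkL/L CDPs. Averaged over populations, the count of 0 was 2 (Ifit2 and Ifit3) without array 1 of GSI-treated IkL/L CDPs and 1 (Dtx3l) without array 2 of GSI-treated WT MDPs. In WT MDPs the count of 0 was also 1, again Dtx3l, without array 2 of GSI-treated WT MDPs.

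Genes upstream of the response were read from lists of their own. None of the 15 measured interferon ligand genes was called in any of the 20 comparisons, and their mean lay between 3.93 and 4.18 on all arrays. That mean is below the array medians of 4.52 to 4.65, so a missing call does not show that the ligand genes were alike. The CD45.1+ support cells were not recovered for RNA, so their ligand genes were not read. Ifnb1 read 3.11 to 3.27 in the 4 IkL/L CDP arrays and 3.22 to 3.31 in the 4 WT CDP arrays. Of 9 receptor chains and kinases, and with 3.21% of all genes called higher in this comparison, Jak2 was called higher (0.66 ± 0.16, limma, adjusted p = 0.0406) and Ifnar2 lower (-0.28 ± 0.07, adjusted p = 0.0361) in IkL/L CDPs averaged over treatments. Ifnar2 read 10.30 to 10.74 in IkL/L CDPs and 10.72 to 10.93 in WT CDPs. Among 22 further factors, sensors and adaptors, Tlr3, the sensor of double-stranded RNA, and its adaptor Ticam1 were called higher in IkL/L CDPs averaged over treatments (1.00 ± 0.24, adjusted p = 0.0436, and 0.42 ± 0.07, adjusted p = 0.00404). In CDPs against MDPs over the 4 conditions, Irf4, a factor of cDC2 development, was higher by 1.96 ± 0.30 (adjusted p = 0.00277) and Irf8, needed for pDCs and cDC1s, was lower (-0.55 ± 0.12, adjusted p = 0.0198).

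A second list of 44 measured interferon-stimulated genes, outside the 36, had the same order of groups. In IkL/L against WT CDPs averaged over treatments 16 were called higher and none lower (median 0.38; 3.21% of all genes called higher). In MDPs none was called (median 0.02; 0.537% of all genes called higher). In CDPs against MDPs over the 4 conditions 22 were called higher and none lower (median 0.38; 4.72% of all genes called higher). Ccl5, a chemokine that mature DCs also make, read 11.32 and 11.39 with GSI and 11.58 and 11.84 with DMSO in IkL/L CDPs, against 7.26 and 8.25 with GSI and 7.66 and 8.77 with DMSO in WT CDPs (3.55 ± 0.27, limma, adjusted p = 4.51e-05). It was also the only gene of this list whose genotype effect was called larger in CDPs than in MDPs (2.94 ± 0.38, adjusted p = 0.00657). Phf11d read 7.02, 5.87, 7.18 and 6.90 in IkL/L CDPs (GSI, then DMSO), against 4.63, 4.69, 5.15 and 5.00 in WT CDPs (1.88 ± 0.21, adjusted p = 0.000607). Gbp5, a guanylate-binding protein, differed by 1.97 ± 0.27 (adjusted p = 0.00197) and Oas1a by 1.32 ± 0.22 (adjusted p = 0.00635). With GSI averaged over the populations, Trim34a was the only gene of this list called lower (-0.60 ± 0.08, adjusted p = 0.0233).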

How the data were processed

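The authors deposited log2 values per probe set from Affymetrix Mouse Gene ST 1.0 arrays, made by RMA in Affymetrix Expression Console 1.4.1 according to the submitters' processing notes: background was corrected, arrays were normalized to each other and probes were summarized. Weak signals are compressed on this scale, and array number limits the precision. Array samples were grouped by their labels, all 16 in 8 groups of 2. Of 28188 probe sets, 21789 carry 1 gene symbol in the platform annotation, 1621 several and 4778 none. The genes were 19938, with the brightest probe set kept per symbol and no filter. One limma 3.58.1 model (R 4.3.3, statmod 1.5.0) with a mean for each of the 8 groups took in every array (8 residual and 2.35 prior degrees of freedom), with two-sided eBayes tests and Benjamini-Hochberg adjustment over all genes at 0.05. The script was tested on simulated data. The paper gives 2 mice per condition, so p-values measure the spread between these arrays. The gene members, lists and tests were chosen with earlier results of these data known. Of 20 comparisons, 7 (genotype averaged over treatments in each stage and their difference, stage with GSI in each genotype and averaged over conditions, and the difference of GSI effects between genotypes in CDPs) were added after the values were seen. Any measured member could be named. Array values were given for the 16 members with the smallest adjusted p of a call in any comparison, Irf1, Irf7, Irf9, Stat2 and the widest genotype difference of each role, while those of Mx1, Ifit3 and Gbp3 were added after their values were seen. Alternatives were another probe set summary, a filter on dim probe sets, centring, renewed quantile normalization, trended or robust eBayes, array weights, a replicate block, the compared arrays alone and each array left out. Promoters are from RefSeq (GRCm38.p6).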

Additional observations from a re-analysis of the deposited data

Results flagged for a closer look

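The genotype effect on Herc6, the ligase that attaches ISG15 to proteins in mice, differed between stages: averaged over GSI and DMSO, IkL/L minus WT was larger in CDPs than in MDPs by 1.25 ± 0.17 on the log2 scale (SE; limma, adjusted p = 0.00936). In CDPs the difference was 1.04 ± 0.12, with all 4 IkL/L arrays above all 4 WT arrays, and in MDPs it was -0.20 ± 0.12, with overlapping arrays. The averaged comparison between stages was added after the values were seen. Over the fits without 1 array the difference between stages ran between 1.12 and 1.37, with adjusted p of at most 0.0391.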

How the results depend on the processing

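Counts of called interferon-stimulated genes moved by over 1.5 times in these cases. For IkL/L against WT CDPs with DMSO (2), centring each array gave 1, repeated quantile normalization 5, a trended prior 4 and the compared arrays alone 0. With GSI (6) the compared arrays alone gave 0. Over 4 populations (9) centring gave 5, with the calls of Parp9, Dtx3l, Trim25 and Usp18 lost. With the compared arrays alone, IkL/L against WT CDPs averaged over treatments (14) gave 7, CDPs against MDPs in IkL/L cells gave 10 with DMSO (17) and 8 with GSI (14), and IkL/L against WT MDPs averaged (0) gave 1. That last comparison also gave 1 with dim probe sets left out and 1 with the replicate block. A trended prior gave 1 for CDPs against MDPs in DMSO-treated WT cells (0), and repeated quantile normalization gave 3 for the averaged difference of genotype effects (1).

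Leaving out each array in turn, the counts ran between 0 and 6 (IkL/L against WT CDPs, DMSO), 2 and 10 (CDPs, GSI), 7 and 21 (CDPs, averaged), 0 and 1 (MDPs, averaged), 5 and 16 (4 populations), 0 and 1 (difference of genotype effects, DMSO), 1 and 7 (the same, averaged), 4 and 21 (CDPs against MDPs, IkL/L with DMSO), 2 and 18 (IkL/L with GSI), 0 and 1 (WT with DMSO), 0 and 1 (WT with GSI), 26 and 30 (averaged over 4 conditions), 0 and 1 (GSI in WT MDPs) and 0 and 2 (GSI averaged). Of the alternatives for 92 called gene and comparison pairs, 1963 kept the call, 331 lost it and none changed direction.

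Neither the labels nor the methods say whether same-numbered arrays share a mouse or day. Over 28 pairs of groups, their deviations correlated between -0.254 and 0.658, and 17 exceeded 0.1. The GSI and DMSO arrays gave 0.658 in IkL/L CDPs, 0.585 in WT CDPs, 0.476 in WT MDPs and -0.0204 in IkL/L MDPs. Over the interferon-stimulated genes alone these were 0.779, 0.389, 0.215 and 0.488. The averages over treatments took the GSI and DMSO arrays as independent. If these arrays share a mouse, the SEs and p-values of genotype and stage averaged over treatments may be too small. The replicate block moved no other count of called genes by over 1.5 times, which does not show that the arrays were independent. With 2 arrays per group, a missing call does not show that a gene was alike.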
